A study of Canis lupus familiaris with 25 samples.

Results

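Complement is a set of plasma and cell-surface proteins that tags and lyses targets and attracts immune cells. Its classical pathway starts when C1q binds antibody or a surface and activates the proteases C1r and C1s, its lectin pathway starts from collectins, and its alternative pathway is amplified by factors B and D. All of them converge on C3 and C5 and end in a membrane pore, and soluble and membrane-bound regulators hold them back on the body's own cells. Most circulating components are made by the liver, while C1q comes mainly from macrophages.

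The genes described are 36 components, receptors and regulators of complement, chosen by gene symbol. Of these, 33 were found among the 24532 genes of the QuantSeq 3′ count table. The genes C8A, CD46 and MBL2 were not matched by symbol and are not analysed here. QuantSeq 3′ reads each transcript near its 3′ end, and the values are numbers of reads per gene in formalin-fixed, paraffin-embedded (FFPE) tumors of pet dogs.

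Hepatoid gland adenoma (HGA), a benign tumor of the perianal glands, was represented by 10 samples. Apocrine gland anal sac adenocarcinoma (AGASAC), which is malignant and arises in the anal sac, was represented by 11 primary tumors and by 4 sublumbal lymph node metastases, taken from the dogs of primary AGASAC 1 to 4. RNA came from entire cross sections of the tumor. The HGA dogs were 8 to 14 years old and comprised 2 intact and 3 neutered females, 4 intact males and 1 neutered male. The primary AGASAC dogs were 8 to 12.5 years old, with 2 intact and 3 neutered females, 6 neutered males and 0 intact males. The dogs with metastases were 8 to 10 years old, and comprised 1 intact and 1 neutered female and 2 neutered males. The dogs were of several breeds, and no treatment is given in the labels. No normal gland was among the samples, so HGA and AGASAC differ in gland of origin as well as in malignancy, and these cannot be told apart. The share of intact males also differed between the tumor types, and its part in the results was not tested. In bulk tumor RNA, fewer cells of a type and less RNA per cell cannot be told apart.

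Each sample had 1562347 to 6389555 counts on genes, and the 33 genes held 0.0682% to 0.192% of them in HGA, 0.0943% to 0.199% in primary AGASAC and 0.0782% to 0.31% in metastases. Levels are given as CPM, a gene's counts relative to the total of the sample after TMM scaling, and a count of 0 allows 3 counts, which is 0.543 to 1.84 CPM depending on the sample. Epithelial markers followed the labels in level. KRT8 was at 0 in 9 of 10 HGA, and KRT79 at 0 in 11 of 11 primary AGASAC. In HGA against primary AGASAC, 6 of 6 tested genes of simple gland epithelium were lower, beside 12.5% of all genes. Of stratified and sebaceous epithelium 4 of 6 were higher, beside 12.6%, while PLIN2 and PPARG were not called. Genes such as KRT8 and KRT79 passed the filter on low counts through the group where they are high, so their calls add little to these levels. The lymphoid list summed to 59.2 to 75.9 CPM in the lymph node metastases and 26.2 to 123 CPM in the primary tumors. A pair of samples stood apart in the summed level of the complement genes. HGA 10 had the lowest sum of HGA, 741 CPM against a median of 1446 CPM, and metastasis 2 had the highest of all samples, 2710 CPM against 832 CPM in the lowest metastasis. Abundant genes weigh most in this sum, such as C1QBP at 245 CPM in HGA 10 against a median of 556 CPM in HGA. In C1QB (40.4 CPM) and C1QC (59.8 CPM) HGA 10 was the highest HGA.

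The comparison of HGA with AGASAC as baseline asks which genes separate the benign from the malignant perianal tumor. C4BPA, CD93 and CD59 were higher in HGA, and SERPING1 and C1QB were lower. The other 15 genes that passed the filter on low counts were not called, and 13 of the 33 were too low to be tested. A gene was called at an adjusted p of at most 0.05 in edgeR's quasi-likelihood test with a log2FC, the log2 ratio of HGA over AGASAC, of 1 or more in size. The called genes were thus 5 of 20 tested, beside 25.1% of all 12070 genes tested, so their share was near the background. The 3 higher and 2 lower genes stood beside 12.6% and 12.5% of all genes. The median log2FC was −0.12 over the 20 genes and −0.03 over all genes.

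By role, 1 of 6 tested classical pathway genes was lower in HGA and 0 were higher. Among the fluid-phase regulators 1 of 4 tested was higher and 1 was lower. The 1 tested membrane regulator was higher, and so was 1 of 5 tested receptors and binding proteins. The 1 tested gene listed under the lectin pathway was the scavenger collectin COLEC12, while MASP1, MASP2 and COLEC11 were not tested. COLEC12, the 1 tested gene of the alternative pathway and the 2 central and terminal components were not called.

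**Figure D1:**
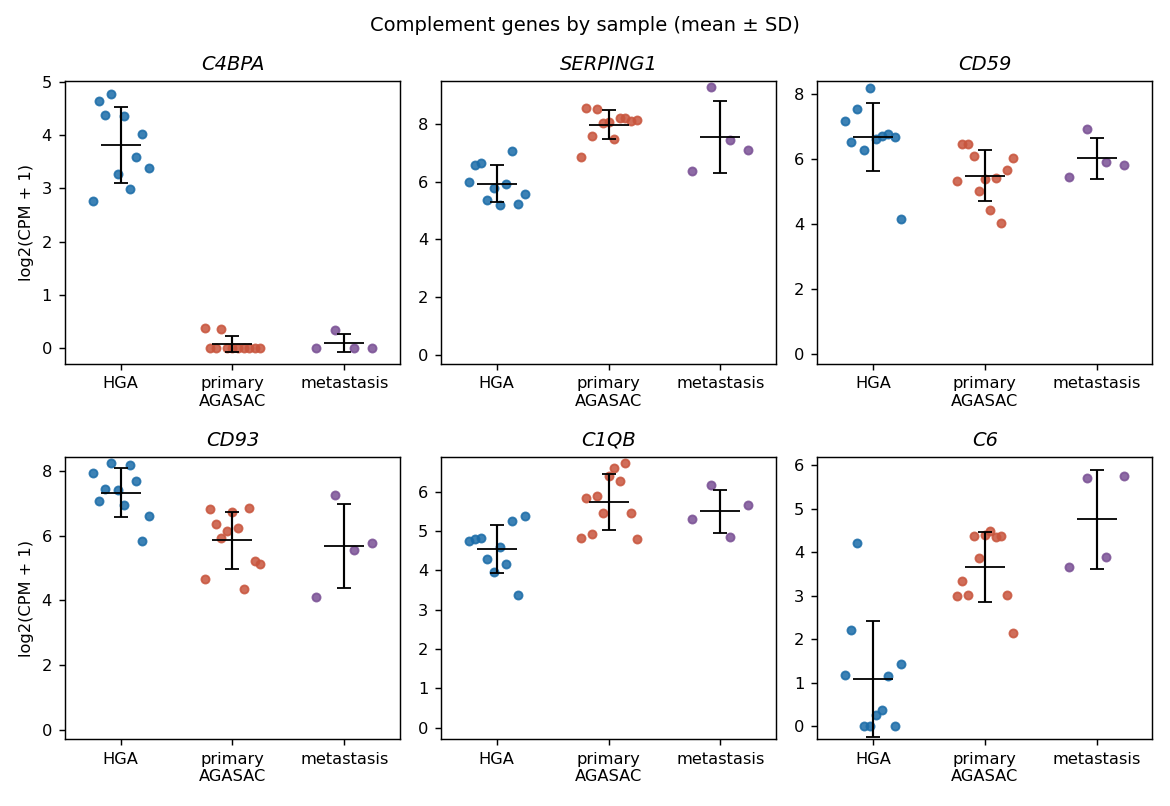
Levels of 6 complement genes on the log2(CPM + 1) scale in each HGA, primary AGASAC and metastasis (points), with the group mean and SD (black). C4BPA was at 5.79 CPM or more in every HGA and at 0.301 CPM or less in every AGASAC sample, while the groups overlapped for the other 5 genes.

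C4BPA encodes the alpha chain of C4b-binding protein, a soluble inhibitor that binds C4b and serves as cofactor for its cleavage. Its level in HGA was lowest in HGA 1 at 5.79 CPM, had a median of 13.2 CPM and was highest in HGA 4 at 26.4 CPM. In primary AGASAC it was at most 1 count, in primary tumors 1 and 4, and 0 in the other 9. The metastases had 0 counts in 3 samples and 1 count in metastasis 2. Every HGA lay above every AGASAC sample. C4BPA was the only tested complement gene whose HGA and primary AGASAC values did not overlap, beside 9.13% of all genes, or 4.37% with HGA higher. Pooled over samples, HGA had 383 counts and the primary tumors 2, a ratio of 241 with an exact 95% interval of 66.3 to 2000 that covers counting error only. The fitted log2FC was 7.28 ± 0.532 (SE, edgeR, Benjamini-Yekutieli adjusted p = 1.61e-09), a size that depends on the prior count because one group is near 0. C4BPA passed the filter through HGA alone, so a gene tested in this way had to differ, and the test adds nothing to the counts themselves. Within RNA extraction batches 5, 6 and 8 the log2FC was 8.57, 6.11 and 6.57, each not called in these small fits.

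The beta chain gene C4BPB did not follow it. It reached at most 5 counts in HGA, 12 in primary AGASAC and 7 in the metastases, and was too low to be tested. C4BPB, C4BPA and CD55, a membrane regulator that speeds the decay of convertases, are direct neighbors in this order in the RefSeq gene table of the UU_Cfam_GSD_1.0 assembly. CD55 was also too low to be tested, at 0 to 4.93 CPM in HGA and 0 to 6.67 CPM in primary AGASAC. Both neighbors were thus at low levels in the tumors in which C4BPA was counted.

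Because C4b-binding protein is a liver product, the liver marker list was read beside it. Its summed level was 8.17 to 42.3 CPM in HGA and 11.7 to 184 CPM in primary AGASAC, and 0 of its 2 tested genes were called. Of the 10 liver genes found, APOA2, APOB, APOH, FGB and TF had a median of 0 in HGA. Albumin (ALB) reached 3.16 CPM in HGA and was at 0 in 4 of 10 HGA and 10 of 11 primary AGASAC. APOA1 reached 24 CPM and SERPINA1 21.1 CPM in HGA, against 12.1 and 13.8 CPM in primary AGASAC. The part of liver-type expression in the C4BPA result was not tested.

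SERPING1 encodes C1 inhibitor, the protease inhibitor that inactivates C1r, C1s and the lectin pathway proteases. Its level in HGA ran from 35.3 CPM in HGA 6 through a median of 57 CPM to 133 CPM in HGA 8. In primary AGASAC it ran from 115 CPM in tumor 1 through a median of 272 CPM to 376 CPM in tumor 2. The groups met only at their edges, with 10 of 11 primary tumors above the highest HGA and 9 of 10 HGA below the lowest primary tumor. The log2FC was −1.96 ± 0.255 (SE, edgeR, Benjamini-Yekutieli adjusted p = 1.07e-05), which is 3.9-fold lower in HGA. Its call held in 21 of 21 fits that left out a sample, and within extraction batches 5, 6 and 8 the log2FC was −1.65, −2.14 and −2.37 without a call.

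Clusterin (CLU) and complement factor I (CFI) are the other tested soluble regulators. CLU, which binds the assembling terminal complex, had a median of 43.3 CPM in HGA (11.4 to 127) and 84.9 CPM in primary AGASAC (46.7 to 214), with a log2FC of −0.90 ± 0.379 (SE, edgeR, Benjamini-Yekutieli adjusted p = 0.537). CFI, the protease that cleaves C3b and C4b, had medians of 18.8 and 15.8 CPM and a log2FC of −0.41 ± 0.356. Neither was called. Primary tumors 4 and 8, at 57.3 and 54.3 CPM of CFI, lay above every HGA, the highest of which was at 25.1 CPM.

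CD59 encodes protectin, a membrane-anchored protein that blocks the last step of pore formation. In HGA it ran from 16.8 CPM in HGA 10 through a median of 103 CPM to 293 CPM in HGA 5. In primary AGASAC it ran from 15.5 CPM in tumor 9 through a median of 42.2 CPM to 88.1 CPM in tumor 3. Of the HGA, 8 of 10 lay above every primary tumor, and HGA 10 lay near the lowest of them. The log2FC was 1.32 ± 0.346 (SE, edgeR, Benjamini-Yekutieli adjusted p = 0.0296). This call was the least stable, as it held in 13 of 21 fits that left out a sample, with adjusted p up to 0.0927. It was lost without primary AGASAC 1, 5, 6, 7 or 8 or HGA 1, 3 or 5, and also with library size alone (log2FC 1.01, adjusted p = 0.152 by the same edgeR test). With the tumor number as replicate block, which joins unrelated dogs, CD59 was not called either. Within extraction batches 5, 6 and 8 the log2FC was 1.25, 1.72 and 0.96, not called.

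CD93 encodes a transmembrane receptor of endothelial and myeloid cells, once described as a C1q receptor. In HGA it ran from 55.6 CPM in HGA 9 through a median of 170 CPM to 299 CPM in HGA 4. In primary AGASAC it ran from 19.4 CPM in tumor 8 through a median of 70.1 CPM to 115 CPM in tumor 9. Above the highest primary tumor were 8 of 10 HGA. The log2FC was 1.45 ± 0.327 (SE, edgeR, Benjamini-Yekutieli adjusted p = 0.00817) and the call held in 21 of 21 fits that left out a sample. It was lost with library size alone (log2FC 1.14, adjusted p = 0.0742 by the same edgeR test) and with the tumor number as replicate block. Without the filter on low counts, at most 1 of CD59 and CD93 was called. Within the same batches the log2FC of CD93 was 1.05, 1.17 and 1.62, not called. Of 7 tested genes of the endothelial list, CDH5 (log2FC 1.47) and TIE1 (1.89) were called higher in HGA and 0 lower. ESAM had the opposite sign, at −1.86, and was not called, with medians of 12.9 CPM in HGA and 31.5 CPM in primary AGASAC. The list summed to 238 to 636 CPM in HGA and 96.2 to 428 CPM in primary AGASAC, none of its genes had a median of 0, and its part in the CD93 result was not tested.

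C1QB encodes one of the 3 chains of C1q, the recognition molecule of the classical pathway, beside C1QA and C1QC. C1QB ran from 9.33 CPM in HGA 9 through a median of 24.4 CPM to 40.4 CPM in HGA 10. In primary AGASAC it ran from 27 CPM in tumor 11 through a median of 55.9 CPM to 104 CPM in tumor 9. Below the lowest primary tumor were 7 of 10 HGA, and 8 of 11 primary tumors lay above the highest HGA. The log2FC was −1.26 ± 0.287 (SE, edgeR, Benjamini-Yekutieli adjusted p = 0.00865), and the call held in 21 of 21 fits that left out a sample.

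Within the batches the log2FC of C1QB was −1.81, −1.62 and −1.04, not called. With the tumor number as replicate block it was −1.29 and not called either (adjusted p = 0.0658 in edgeR's test).

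The other chains had smaller differences that were not called. C1QA had medians of 55.4 CPM in HGA and 92.6 CPM in primary AGASAC and a log2FC of −0.60 ± 0.218 (SE, edgeR, Benjamini-Yekutieli adjusted p = 0.258). C1QC had medians of 40.7 and 70.7 CPM and a log2FC of −0.68 ± 0.247 (SE, edgeR, Benjamini-Yekutieli adjusted p = 0.259). C1QB made up 15.6% to 21.2% of the summed C1q counts in HGA (median 18.1%), 18.1% to 38.6% in primary AGASAC (median 23.4%) and 20.6% to 31.2% in metastases. Whether the chains differed from each other in their change was not tested. The 3 genes are direct neighbors in the RefSeq gene table.

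Macrophage markers were read beside C1q. Of 9 tested genes of the macrophage list, CD14 was called lower in HGA (log2FC −1.33) and 0 were higher. The list summed to 59 to 234 CPM in HGA and 103 to 315 CPM in primary AGASAC. Of its 10 genes, MARCO alone had a median of 0 in each group. The part of macrophage content in the C1QB result was not tested.

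The names of the sequencing files fell into 2 series that were unevenly spread over the tumors. Series A held 9 HGA and 3 primary AGASAC, and series B held 1 HGA and 7 primary AGASAC. Primary AGASAC 4 was assigned to neither series. Within series A, C4BPA (log2FC 6.75) and SERPING1 (−1.71) were still called. CD93 at 1.40, CD59 at 0.92 and C1QB at −0.73 kept their sign and were not called, with adjusted p of 0.454, 0.986 and 1 in edgeR's test. With the extraction batch as a term, all 5 genes were called and C6 in addition. In these fits C4BPA again passed the filter through HGA alone, so its calls add nothing to its counts.

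**Figure D2:**
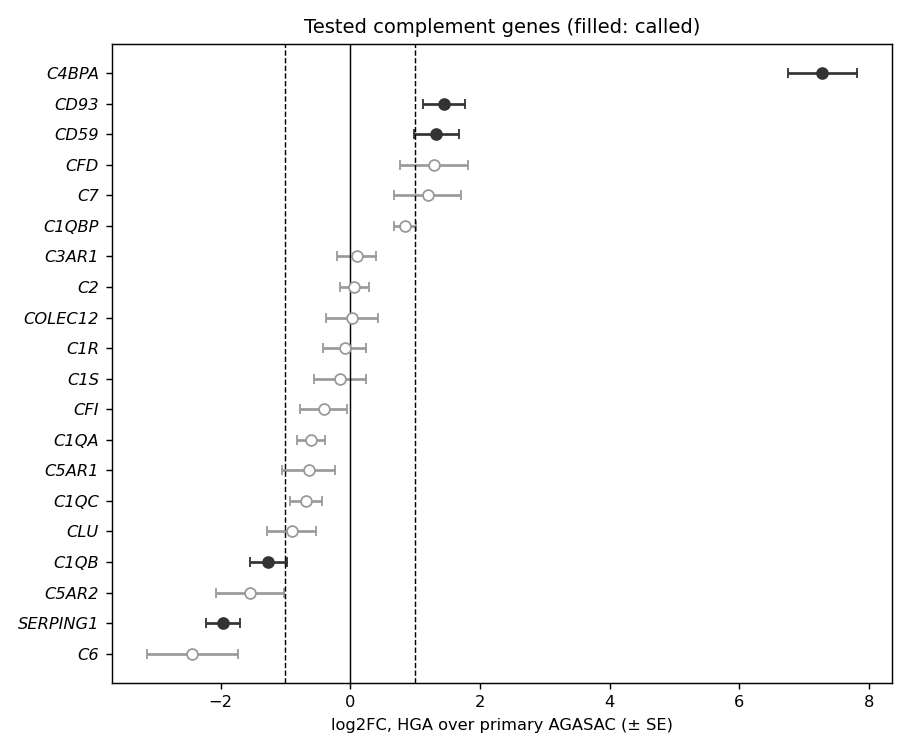
The log2FC of HGA over primary AGASAC for the 20 complement genes that passed the filter, with its SE. Filled points were called, dashed lines mark −1 and 1, and C6 has the lowest log2FC (−2.43) but was not called.

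The proteases C1R and C1S, the classical pathway component C2, the anaphylatoxin receptor C3AR1 and the scavenger collectin COLEC12 lay near 0. Their log2FC ran from −0.16 to 0.10, and for these 5 genes the 95% interval of log2FC stayed between −1 and 1. C1S, for example, had medians of 129 and 175 CPM, a log2FC of −0.16 and an interval of −0.93 to 0.62. C5AR1, the main C5a receptor, had medians of 10.1 CPM in HGA and 17 CPM in primary AGASAC, with an interval of −1.45 to 0.16. C5AR2, the second C5a receptor and a direct neighbor of C5AR1, had medians of 1.68 and 5.83 CPM and a log2FC of −1.55 ± 0.527 (SE, edgeR, Benjamini-Yekutieli adjusted p = 0.183).

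C1QBP, a mitochondrial and surface protein that binds C1q, passed the p threshold but not the fold threshold. In HGA it ran from 245 CPM in HGA 10 through a median of 556 CPM to 594 CPM in HGA 9. In primary AGASAC it ran from 146 CPM in tumor 6 through a median of 269 CPM to 368 CPM in tumor 7. Every HGA except HGA 10 lay above every primary tumor. The log2FC was 0.84 ± 0.173 (SE, edgeR, Benjamini-Yekutieli adjusted p = 0.00314).

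Factor D (CFD), the protease that activates factor B, had a median of 30.6 CPM in HGA and 12.1 CPM in primary AGASAC and a log2FC of 1.29 ± 0.527 (SE, edgeR, Benjamini-Yekutieli adjusted p = 0.464). Its spread in HGA was wide, from 0 CPM in HGA 4 to 80.4 CPM in HGA 3. CFB, its substrate, and properdin (CFP), which stabilizes the alternative convertase, stayed below 7 CPM in all samples and were not tested. In the lectin pathway, MASP1, MASP2 and COLEC11 were likewise too low.

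The terminal components C6 and C7, which join C5b in the growing pore, lay on opposite sides of 0. C6 had a median of 0.768 CPM in HGA and 13.5 CPM in primary AGASAC, with 8 of 10 HGA below the lowest primary tumor. The other two were HGA 2 at 3.62 CPM and HGA 3 at 17.7 CPM. The log2FC of −2.43 ± 0.699 was not called (SE, edgeR, Benjamini-Yekutieli adjusted p = 0.0619). Without HGA 3 it was −3.78 with an adjusted p of 0.000205 in edgeR's test, and without primary AGASAC 11 it was also called. DESeq2 called it on all samples with a Benjamini-Yekutieli adjusted p of 0.0174. C6 had 14 counts or more in every primary AGASAC but a median of 2 in HGA. It thus passed edgeR's filter mainly through primary AGASAC. The edgeR calls, most of all that without HGA 3, add little to the counts themselves. C7 had medians of 52 and 20.2 CPM and a log2FC of 1.19 ± 0.515 (SE, edgeR, Benjamini-Yekutieli adjusted p = 0.596). In HGA it ran from 3.87 CPM in HGA 10 to 171 CPM in HGA 3, the sample that was also highest in C6.

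C3, on which all pathways converge, was low in these tumors and did not pass the filter. It had a median of 7.85 CPM in HGA (0 to 18.3) and 1.72 CPM in primary AGASAC (0.278 to 8.01). HGA 10 was the only HGA at 0. DESeq2 gave a log2FC of 1.81 ± 0.541 (SE, Benjamini-Yekutieli adjusted p = 0.0427), and edgeR without a filter gave 1.76 with an adjusted p of 0.204. C3 passed the filter in 3 of 21 edgeR fits that left out a sample. The log2FC was 1.91, 1.92 and 1.97 without HGA 3, HGA 8 and HGA 10 in turn. The adjusted p in edgeR's test was 0.0769, 0.0711 and 0.0124, so 1 of the 3 gave a call, that without the HGA at 0. Primary AGASAC had a median of 5 counts, below the filter's minimum of 10. C3 thus entered these fits mainly through HGA, and the call adds little to the counts themselves.

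C5 was counted almost entirely in one dog. Primary AGASAC 4 was at 42.8 CPM and metastasis 4, of the same dog, at 62.3 CPM, which were 154 and 195 counts. The other 23 samples were at most at 4.52 CPM. C8B, C8G and C9, the last components of the pore, reached at most 8, 8 and 1 counts in any sample. CR2, the complement receptor of B cells and follicular dendritic cells, was at 15.2 CPM in HGA 8 and at most 4.54 CPM elsewhere.

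Other genes of the pathway were read from a separate list. Of 8 tested complement genes outside the 36, THBD (thrombomodulin, log2FC 1.78) was higher in HGA, and SUSD4 (a complement inhibitor, −8.18) and ITGAM (a chain of complement receptor 3, −4.77) were lower. The 1 higher and 2 lower genes of the 8 stood beside 12.6% and 12.5% of all genes. SUSD4 was at 27.4 to 85.3 CPM in primary AGASAC and at 0 in 9 of 10 HGA. ITGAM had a median of 19.8 CPM in primary AGASAC and 0.737 CPM in HGA. Both thus passed the filter mainly through primary AGASAC, so their calls add little to these levels. Among 10 tested transcription factors known to act on complement genes, CEBPA (log2FC 4.14), CEBPB (3.04) and NR1H3 (1.27) were higher in HGA, and IRF1 (−2.24) was lower. The 3 higher factors stood beside 12.6% of all genes. NR1H3 was at the edge of the threshold (edgeR, Benjamini-Yekutieli adjusted p = 0.0499). A link between these factors and the levels of the complement genes was not tested.

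Pairs of genes whose products act together were compared across the samples of each tumor type. In the 10 HGA, C1QB and C1QC correlated with a Pearson r of 0.93 and a Spearman rho of 0.99, and in the 11 primary AGASAC with 0.73 and 0.61. C1QA and C1QB correlated at r = 0.86 and 0.73 (rho 0.87 and 0.71). C1QA and C1QC correlated at r = 0.73 (rho 0.83) in HGA and 0.92 (rho 0.92) in primary AGASAC. C1R and C1S correlated at r = 0.90 and 0.82 (rho 0.90 and 0.78). Of the 22 relations computed over both tumor types, these 8 had permutation p of 0.0131 or lower for Pearson's r, and adjusted by Benjamini-Hochberg over the 22 they ran from 0.00044 to 0.0266. For rho, the permutation p of C1QB and C1QC in primary AGASAC was 0.0515, or 0.0872 adjusted. Without the 2 samples farthest from the median, r of these 8 ran from 0.58 to 0.91.

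**Figure D3:**
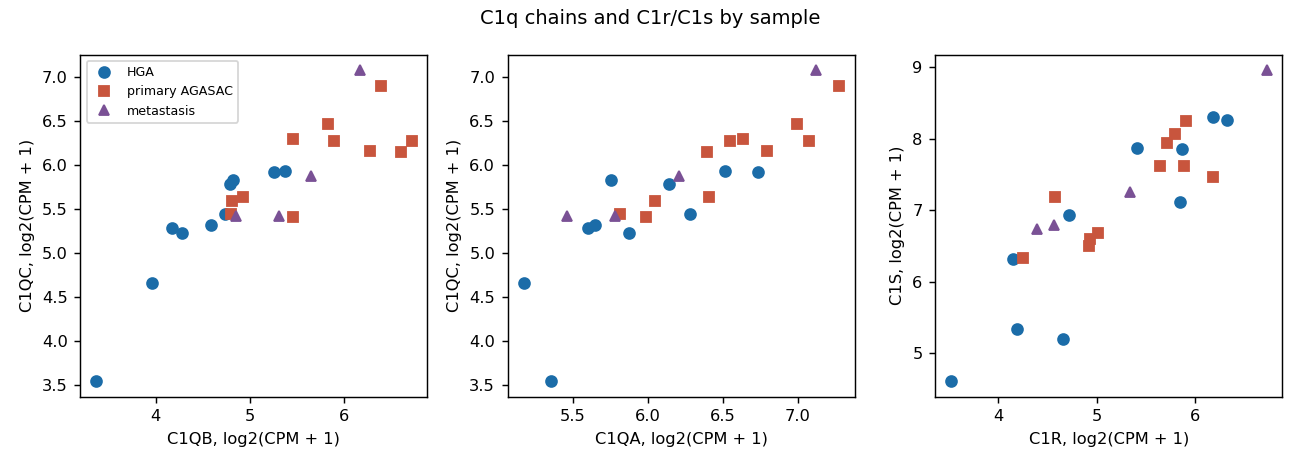
C1QB against C1QC, C1QA against C1QC and C1R against C1S on the log2(CPM + 1) scale, with a point for each HGA, primary AGASAC and metastasis. Within HGA r was 0.93, 0.73 and 0.90, and HGA 9 is the lowest point in both C1q panels for C1QC.

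C1R and C1S also followed the fibroblast list in HGA, at r = 0.77 (rho 0.78, adjusted permutation p = 0.0266) and 0.71 (rho 0.78, adjusted permutation p = 0.0418). In primary AGASAC r was 0.47 and 0.30, with adjusted permutation p of 0.207 and 0.439. CD93 followed the endothelial list in HGA at r = 0.79 (rho 0.93, adjusted permutation p = 0.0214), and in primary AGASAC r was 0.58 (rho 0.47, adjusted permutation p = 0.0992). Without the 2 farthest samples the r in HGA was 0.89, 0.75 and 0.82. Whether the tumor types differed in these relations was not tested.

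C1QB followed the macrophage list in primary AGASAC at r = 0.79 (rho 0.78, adjusted permutation p = 0.0135), and 0.66 without the 2 farthest samples. In HGA r was 0.48 (rho 0.47, adjusted permutation p = 0.212), and 0.79 without HGA 9 and HGA 10. C3AR1, a receptor of myeloid cells, followed that list in HGA at r = 0.73 (rho 0.67, adjusted permutation p = 0.029), which fell to 0.49 without HGA 1 and HGA 8, and in primary AGASAC r was 0.21. C5AR1 and the neutrophil list gave r of −0.47 and 0.22, and C3 and CFB gave 0.43 and −0.05, all with adjusted permutation p of 0.212 or higher. Within series A the 9 HGA gave r of 0.94 for C1QB and C1QC and 0.89 for C1R and C1S, and within series B the 7 primary AGASAC gave 0.69 and 0.89. The extraction batches held too few samples of a type for a correlation.

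The comparison of the 4 metastases with their matched primary tumors asks what differs at the second site. None of the 19 complement genes tested was called by edgeR, beside 0.00% of all 12629 genes tested, and DESeq2 called 0 of them. At an unadjusted p under 0.05 there was 1 complement gene and 145 genes in all (1.15%). With the dog as replicate block edgeR also called 0 of the 19, and 491 of the 12629 genes were at an unadjusted p under 0.05. The 95% intervals were wide in this small comparison, for example −1.33 to 1.23 for SERPING1. They come from the main fit, which does not use the pairing by dog.

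C6 was the gene at an unadjusted p under 0.05, and it was the only one of the 19 tested that was higher in the metastasis in all 4 dogs. How many of all genes were higher in all 4 dogs was not counted, so this direction has no background beside it. C6 was at 11.7, 51.5, 13.8 and 53.4 CPM in metastases 1 to 4 and at 6.93, 9.15, 7.12 and 19.7 CPM in the matching primary tumors. The groups overlapped because primary tumor 4 lay above metastases 1 and 3. The log2FC was 1.60 ± 0.609 (SE, edgeR, Benjamini-Yekutieli adjusted p = 1), and 1.44 ± 0.328 with the dog as replicate block.

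Metastasis 2 went against the others. In dog 2, 17 of 19 genes were higher in the metastasis than in the primary tumor, while in dogs 1, 3 and 4 it was 4, 3 and 5 of 19. SERPING1 was at 81.1, 618, 172 and 136 CPM in metastases 1 to 4 and at 115, 376, 188 and 368 CPM in the matching primary tumors. CLU was at 22.4, 347, 41.8 and 38.3 CPM in the metastases and at 46.7, 70.3, 60.2 and 51.4 CPM in the primary tumors. Both genes were thus higher than in the primary tumor in dog 2 and lower in the other 3 dogs. The fibroblast list summed to 12990 CPM in metastasis 2 and to 744 to 3030 CPM in the other 3, and its part was not tested. Without metastasis 2 the log2FC of SERPING1 moved from −0.05 to −1.03, still not called.

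**Figure D4:**
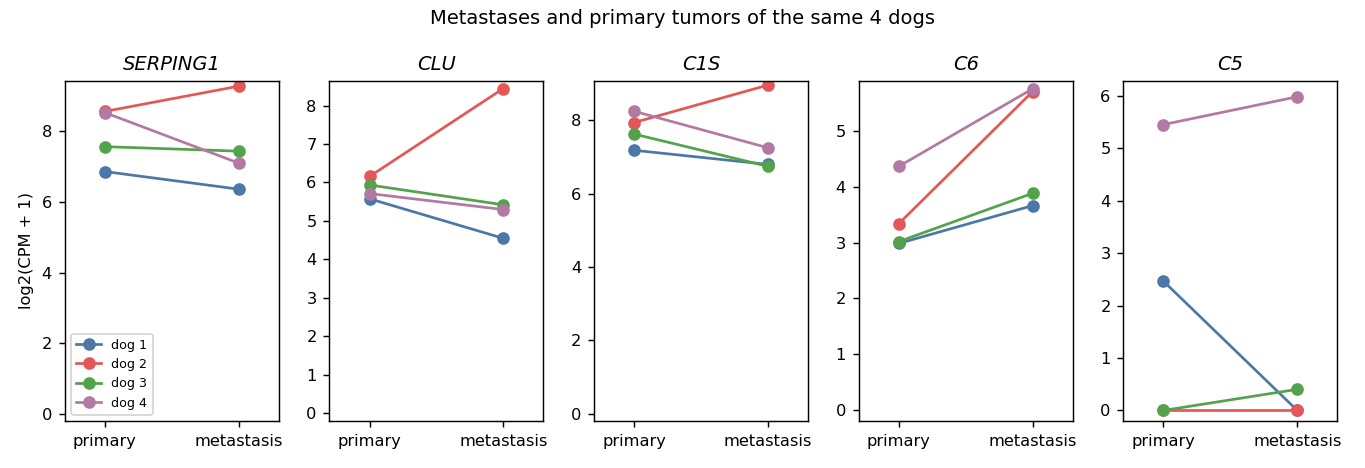
SERPING1, CLU, C1S, C6 and C5 on the log2(CPM + 1) scale in the primary tumor and the metastasis of each of 4 dogs, joined by a line. SERPING1, CLU and C1S were higher in the metastasis of dog 2 alone, C6 was higher in the metastasis of all 4, and C5 was at 42.8 and 62.3 CPM in dog 4.

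The metastases were also compared with HGA, with which they share no dog. This comparison uses the same HGA as the first, and the dogs of the metastases are among those of the primary tumors, so it is no independent repeat. C4BPA was lower and SERPING1 higher in the metastases, which were 2 of 21 complement genes tested beside 16.1% of all 13195 genes tested (7.69% higher and 8.40% lower). C4BPA was below every HGA in all 4 metastases, the only such tested gene of complement, while 7.38% of all genes lay lower without overlap. It had 1 count over the 4 metastases, and the pooled ratio of HGA over metastases was 177 with an exact 95% counting interval of 31.6 to 7020. The fitted log2FC of C4BPA was −7.00 ± 0.832 (SE, edgeR, Benjamini-Yekutieli adjusted p = 9.95e-05). C4BPA passed the filter through HGA alone here too, so the test and its call add nothing to the counts themselves.

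SERPING1 lay above every HGA in 3 of 4 metastases, and metastasis 1 lay within the HGA range. The log2FC was 1.91 ± 0.437 (SE, edgeR, Benjamini-Yekutieli adjusted p = 0.0311). The call held in 7 of 14 fits that left out a sample. Without metastasis 2 the log2FC was 0.96 (adjusted p = 0.737 by the same edgeR test), and without HGA 1, 4, 5, 6, 7 or 9 it was also lost. C6 had a log2FC of 3.72 ± 0.946 and was not called (SE, edgeR, Benjamini-Yekutieli adjusted p = 0.0636), while without HGA 3 it was 5.06 with an adjusted p of 0.00156 in edgeR's test. DESeq2 called C6 on all samples of this comparison, with a Benjamini-Yekutieli adjusted p of 0.0403. With 36 counts or more in each metastasis, C6 was counted mainly there and passed edgeR's filter mainly through the metastases, so these calls add little to the counts. CD93 was at 16.2, 152, 46.3 and 53.7 CPM in metastases 1 to 4, and 3 of them lay below every HGA. Its log2FC was −1.42 ± 0.512 (SE, edgeR, Benjamini-Yekutieli adjusted p = 0.435). For C1QB the log2FC was 0.93 ± 0.332 and for CD59 it was −0.83 ± 0.484, neither called.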

How the data were processed

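QuantSeq 3′ libraries of 25 FFPE tumor samples were analysed. The authors trimmed the reads with cutadapt, aligned them to CanFam3.1 with STAR and counted them with featureCounts in 2 rounds, the second on an annotation extended by 2 kb at the 3′ end, with multi-mapped reads spread evenly, so near-identical genes may share reads. Tool versions are not given in the sources used here. The deposited values used are whole counts per gene, not normalized. The same table holds a signal of normalized counts, the log2 fold change and the p-value of the authors' own comparison, which were not used. No per-sample column was left unmapped.

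Counts were tested in R 4.3.3 with edgeR 4.0.16 (filterByExpr with minimum count 10 and minimum total count 15, TMM, quasi-likelihood test, no covariate). Adjustment was by Benjamini-Yekutieli over all genes tested, and the SE is the log2FC over the root of F. Intervals of log2FC are normal 95% intervals from the SE. CPM used TMM factors over all 25 samples, and list levels are summed CPM. Correlations were on log2(CPM + 1) with 100000 two-sided permutations. The procedure was tested on simulated data. Alternatives were DESeq2 1.42.0, other scalings, filters, adjustment and fold threshold, extraction batches and file-name series, a replicate block, and leaving out each sample. The members and lists were chosen with earlier results of these data known. All members found are named, with full statistics for those called, and other listed genes are counts with at most the 4 largest or up to 5 called ones named. A result of the list of transcription factors is not reported here. C6, C5, C3 and C1QBP were described at length after their values were seen.

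By the labels, metastases 1 to 4 share their dog with primary AGASAC 1 to 4. Their deviations from the group means correlated at 0.726, 0.515, 0.569 and 0.434 across 13275 genes. Replicates of HGA and of primary AGASAC are separate dogs. No pair of samples in a group agreed within sampling noise, as chi-square per degree of freedom was at least 12.2. Coordinates are not given because the gene table at hand is of another assembly.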

Additional observations from a re-analysis of the deposited data

Results flagged for a closer look

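In 39 tests of single genes within HGA or the metastases, 4 values lay far from the rest of their group. The rule was Dixon's criterion on the log2(CPM + 1) scale, where chance gives about 1 in 20 tests. On the CPM scale, as printed here, the flagged values could differ. CD59 was at 16.8 CPM in HGA 10 against 77.5 to 293 CPM in the other HGA, and C1QBP was at 245 CPM in HGA 10 against 426 to 594 CPM. C1QC was at 10.6 CPM in HGA 9 against 24.3 to 59.8 CPM. C6 was at 17.7 CPM in HGA 3 against 0 to 3.62 CPM. The group of 11 primary AGASAC is outside the size range of this criterion.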

How the results depend on the processing

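Between HGA and primary AGASAC, 5 complement genes were called. With Benjamini-Hochberg adjustment it was 8, within extraction batches 5, 6 and 8 it was 0, 0 and 0, within file-name series A it was 2, and with the tumor number as replicate block it was 3. The batch fits hold 6, 5 and 5 tumors and called 262, 637 and 338 of all genes. The tumor numbers of HGA and AGASAC do not pair the samples, as their deviations correlated between −0.0596 and 0.0252. DESeq2 called 7, and the other alternatives 4 to 6. Leaving out 1 sample gave 4 to 6. Over all genes the count was 3032, or 1452 with at least 10 counts in every sample, where fewer genes were tested. With library size alone the median log2FC of all genes moved from −0.03 to −0.33, and 32.8% in place of 50.2% of the called genes were higher in HGA.

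For metastases and primary tumors of the same dogs the count was 0 under every alternative run, from 0 to 0 with 1 sample left out, and 0 with the dog as replicate block, where 1 of all genes was called. DESeq2 called 5 of all genes. For metastases and HGA it was 2, with 1 when at least 10 counts in every sample were required, where C4BPA is not tested, 5 with Benjamini-Hochberg, 3 with DESeq2 or library size alone, and 1 to 3 with 1 sample left out. With library size alone the median of all genes was 0.26 and 63.7% in place of 47.8% of calls were higher in metastases. No called gene changed sign in any setting. Where no cause is named, the cause was not tested. The 13 untested genes were too low in counts for the filter, and the part of sequencing depth in this was not tested. Small groups limit the comparisons with metastases.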
